A study of Homo sapiens with 6 samples.

Results

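The 44 protein-coding genes for collagen chains were followed in LX2 cells after knockdown of Aurora kinase A. They were all the genes with a symbol made of COL, a type number, the letter A and a chain number. All 44 such genes of GENCODE release 29 were found among the 58243 genes of the deposited table, and 26 of them passed the default expression filter of edgeR with 18775 genes in all. The chains were grouped as fibrillar (11 genes), basement membrane (6), beaded filament (5), fibril-associated collagens with interrupted triple helices, known as FACIT (10), and other (12). LX2 is an established human line of activated hepatic stellate cells. Both groups were grown in DMEM with fetal calf serum. One group was transfected with small interfering RNA against AURKA (siAURKA, genotype given as AURKA knockdown) for 48 h, and the other with control small interfering RNA (siNC, genotype given as WT) for 48 h. Each group had 3 libraries of total RNA, numbered 1 to 3. Both groups carry a transfected small interfering RNA, its sequence is not given in the labels, and all libraries come from a single cell line. The labels do not say whether the replicates were separate cultures, so a p-value reflects only how far the libraries scatter, and that scatter may be technical.

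Collagens are built from 3 chains wound into a triple helix, held together by a glycine-rich repeat. A given type may be a homotrimer, or a heterotrimer that needs the products of several genes in fixed proportions. Fibrillar types I, III and V form the banded fibres of scar tissue, type IV forms the meshwork of basement membranes, type VI forms beaded microfilaments, and FACIT collagens sit on the surface of fibrils. Hepatic stellate cells, once activated, are the main source of type I and type III collagen in the fibrotic liver.

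The libraries held between 23366242 units (siNC replicate 2) and 53357402 units (siAURKA replicate 1), and a value of 12 units, taken here as the floor, corresponded to 0.225 CPM in the deepest library and 0.514 CPM in the shallowest. That floor covers counting error only. AURKA was at 49.84, 47.02 and 51.06 CPM in siAURKA replicates 1, 2 and 3, against 135.8, 128.0 and 95.02 CPM in siNC replicates 1, 2 and 3, so the groups did not overlap. By edgeR its log2 fold change came to -1.28 (SE 0.28, adjusted p 0.9999), and the two-sided exact permutation p was 0.1, the smallest that 3 against 3 libraries allow. Of 13 stellate cell and myofibroblast markers 12 passed the expression filter, with VIM at 6409 ± 2440 CPM in siAURKA and 6889 ± 2822 CPM in siNC (SD, n = 3 each). Some of the 12 were near the floor. DES averaged 0.244 CPM in siAURKA and 0.473 CPM in siNC, and PDGFRA 0.851 and 0.567 CPM. The smooth muscle actin gene ACTA2 was at only 19.3 ± 0.997 CPM in siAURKA and 13.45 ± 3.37 CPM in siNC. Its siAURKA libraries (18.69, 18.7 and 20.42 CPM) were all above its siNC libraries (11.84, 17.32 and 11.17 CPM), as in 3.33% of all tested genes. ACTA2 was not called by edgeR (log2 fold change 0.52, adjusted p 0.9999). Of 7 hepatocyte markers, ALB, APOB and TTR were at 0 in all 6 libraries and only SERPINA1 passed the filter, at 24.6 ± 8.79 CPM in siAURKA and 30.1 ± 15.3 CPM in siNC. The summed level of the 7 ran from 17.9 to 34.5 CPM in siAURKA and from 15.2 to 45.6 CPM in siNC, and its part in the results was not tested. The filter also passed 2 of 4 cholangiocyte, 2 of 5 endothelial and 5 of 6 macrophage and leukocyte markers. CD68 averaged 62.2 CPM in siAURKA and 60.2 CPM in siNC, with 85.8% of its exonic bases shared with other genes. CD14 averaged 13.8 CPM in siAURKA and 20.2 CPM in siNC. The part of these markers was not tested either. siNC replicate 2 stood apart from the other libraries in its collagen genes, and the fits were repeated without it.

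On average fibrillar chains made up the largest part of the collagen message, followed by the beaded filament chains of type VI. Levels that compare one gene with another are given as TMM-normalised CPM divided by the kilobases of exonic sequence of the gene, written CPM/kb. Summed over all 44 chains, the level was 460.1 ± 41.95 CPM/kb in siAURKA and 487.3 ± 9.807 CPM/kb in siNC (SD, n = 3 each). The sums overlapped between the groups, with 431.1, 508.2 and 440.9 CPM/kb in siAURKA replicates 1 to 3, against 493.4, 476.0 and 492.4 CPM/kb in siNC replicates 1 to 3. Fibrillar chains held on average 49.1% of the collagen level in siAURKA and 46.9% in siNC. Beaded filament chains held 28.6% in siAURKA and 32.0% in siNC, and basement membrane chains 11.4% in siAURKA and 11.3% in siNC. FACIT chains held 3.28% in siAURKA and 2.87% in siNC, and the other chains 7.51% in siAURKA and 6.93% in siNC. These shares depend on the length used, most for the basement membrane chains. With the longest transcript as length their siNC sum was 157.0 of 761.9 CPM/kb, against 54.92 of 487.3 CPM/kb with all exons. As a share of all deposited units, the 44 chains took 0.442% to 0.466% in siAURKA and 0.389% to 0.518% in siNC.

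**Figure D1:**
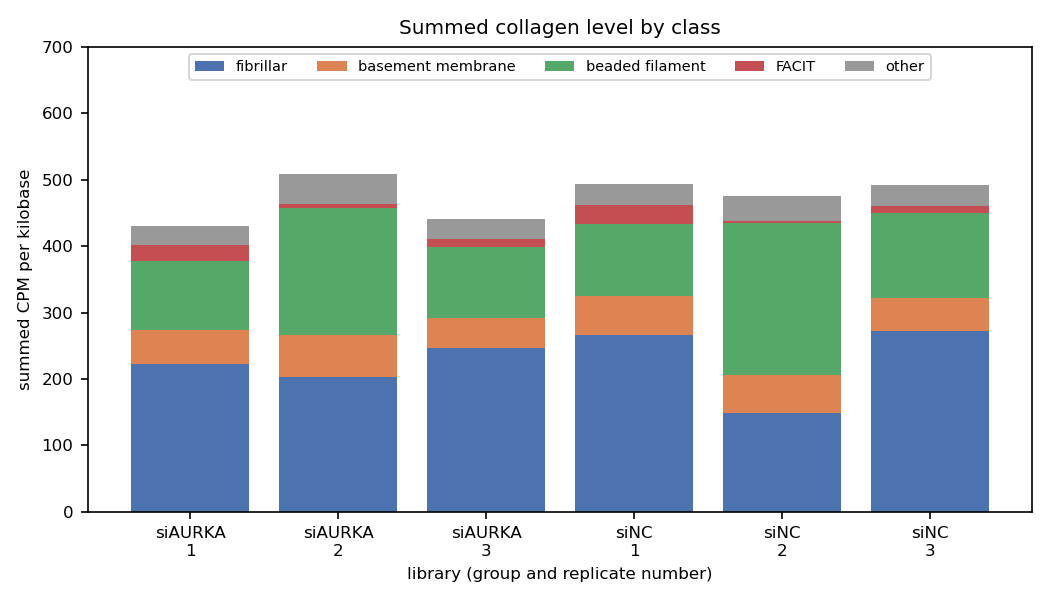
Summed level of the collagen chains of each class in every library, in CPM per kilobase of exonic length, with the siAURKA libraries on the left and the siNC libraries on the right. The total lies between 431.1 and 508.2 CPM/kb, while the split between fibrillar and beaded filament chains is shifted in siNC replicate 2, where beaded filament chains hold 48.3% and fibrillar chains 31.3%.

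The make-up of that sum differed between libraries of one group. In siNC replicate 2 beaded filament chains held 48.3% of the collagen level and fibrillar chains 31.3%, against 22.0% to 25.9% and 54.0% to 55.3% in the other siNC libraries. siAURKA replicate 2 leaned the same way, with 37.6% beaded filament and 39.8% fibrillar, against 24.1% to 24.2% and 51.6% to 56.0% in siAURKA replicates 1 and 3. The log2 ratio of summed means, siAURKA over siNC, was -0.08 for all chains, -0.03 for fibrillar, -0.06 for basement membrane, -0.21 for beaded filament, 0.04 for FACIT and 0.05 for other chains. In pairs of libraries with the same number the fibrillar sum had log2 ratios of -0.26, 0.44 and -0.14 in pairs 1, 2 and 3, so pair 2 lay on the other side of 0. The FACIT sum had -0.22, 1.13 and 0.21. The beaded filament sum had -0.06, -0.27 and -0.26, below 0 in each pair. Without siNC replicate 2, however, the log2 ratio of its summed means was 0.18.

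**Figure D2:**
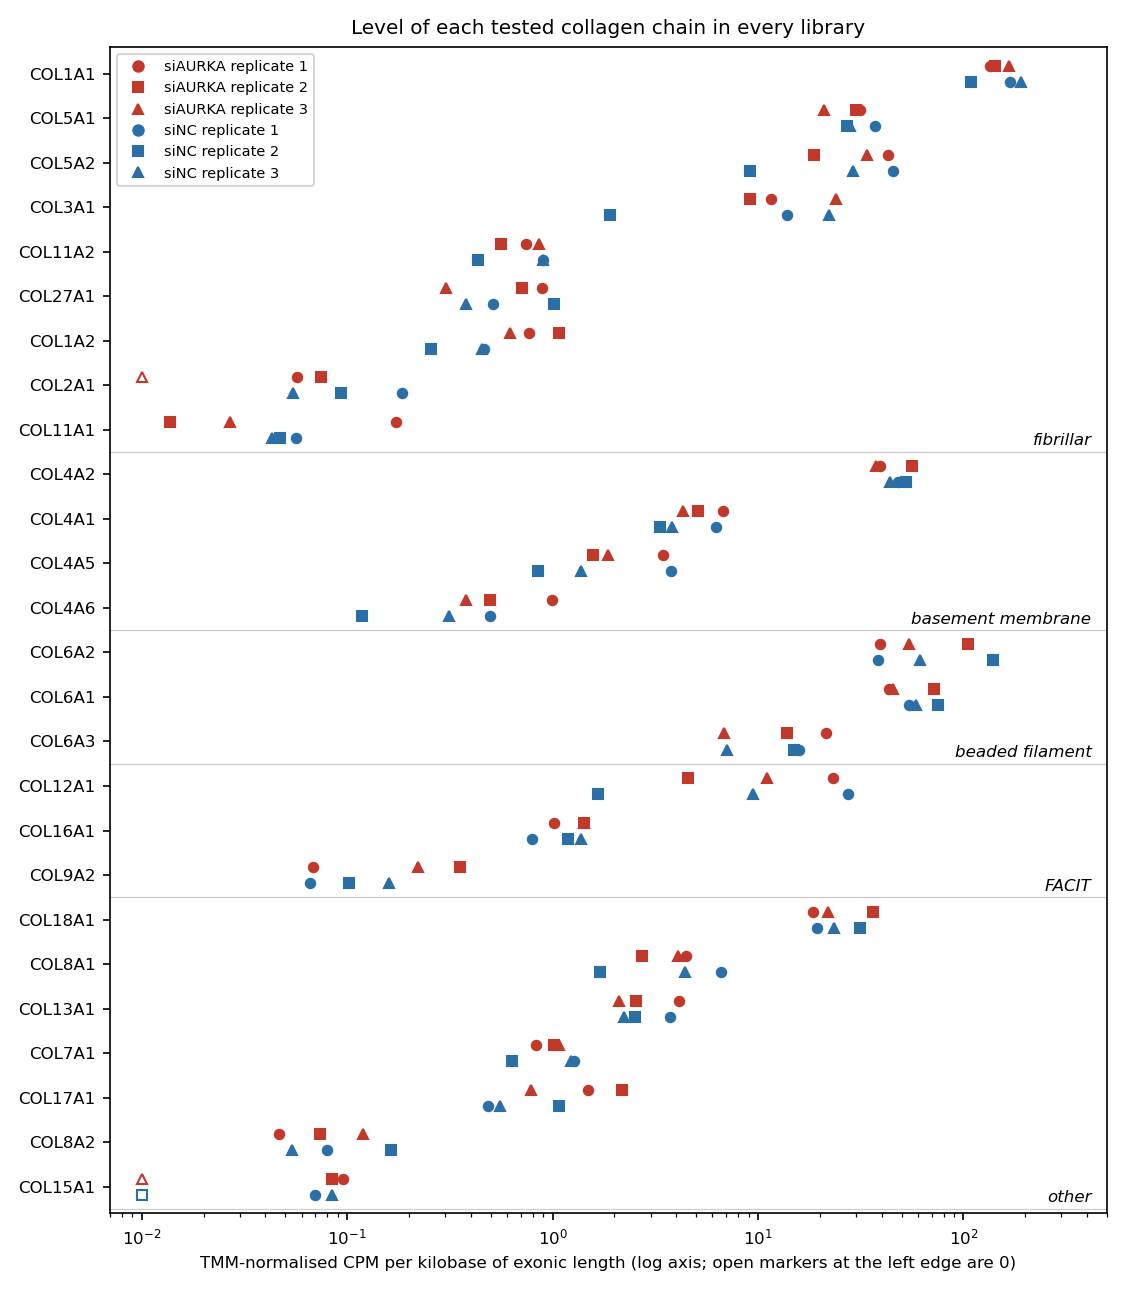
Level of each of the 26 tested chains in every library on a log axis of CPM per kilobase, grouped by class and ordered by the siNC mean, with siAURKA above siNC for each chain. COL1A1 is at the top with 109.1 to 191.5 CPM/kb in the siNC libraries, while COL1A2 is at most 1.07 CPM/kb in every library.

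Among the fibrillar chains COL1A1, which encodes the alpha-1 chain of type I collagen, stood far above the rest. It was at 134.4, 142.0 and 166.3 CPM/kb in siAURKA replicates 1, 2 and 3, against 167.8, 109.1 and 191.5 CPM/kb in siNC replicates 1, 2 and 3. The siAURKA values all lie inside the siNC range. COL1A1 ranked 186 among 19788 protein-coding genes by its siNC level, and it was the highest collagen chain in 5 of 6 libraries, the exception being siNC replicate 2. By edgeR COL1A1 was at -0.08 on the log2 scale (SE 0.30, adjusted p 0.9999), with a 95% interval from -0.77 to 0.61. In the pairs the log2 ratios were -0.32, 0.38 and -0.20, so pair 2 again had the other sign. Without siNC replicate 3 the log2 fold change was 0.10, and without siNC replicate 2 it was -0.28.

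COL1A2, the gene of the alpha-2 chain that joins the product of COL1A1 in type I heterotrimers, was the only fibrillar chain whose groups stood apart, though it was not called. It was at 0.763, 1.068 and 0.618 CPM/kb in siAURKA replicates 1, 2 and 3, against 0.461, 0.257 and 0.452 CPM/kb in siNC replicates 1, 2 and 3. All siAURKA libraries were above all siNC libraries. In deposited units these were 472, 383 and 310 in siAURKA, against 222, 60 and 180 in siNC, all above the floor of 12. By edgeR the log2 fold change was 1.06 (SE 0.39, 95% interval 0.15 to 1.97), with an adjusted p of 0.9999 over all genes (0.0278 before adjustment). Over the alternatives the adjusted p ran from 0.228 (DESeq2 with a replicate block) to 1.0, and leaving out 1 library gave log2 fold changes from 0.83 to 1.22. Its unadjusted p was not below 0.05 without siAURKA replicate 1, siAURKA replicate 2 or siNC replicate 2. COL1A2 was higher in siAURKA in 3 of 3 pairs, with log2 ratios of 0.72, 2.04 and 0.45, and pair 2 holds the shallowest library, siNC replicate 2. COL1A2 was the only chain of the 26 whose groups did not overlap with siAURKA higher, and none did so with siAURKA lower. Among all tested genes 3.33% had non-overlapping groups with siAURKA higher and 2.52% with siAURKA lower.

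The messages of the partner chains of type I collagen were present in very unequal amounts. Per kilobase, COL1A1 exceeded COL1A2 by 176-, 133- and 269-fold in siAURKA replicates 1, 2 and 3, against 364-, 425- and 424-fold in siNC replicates 1, 2 and 3. The ratio was lower in every siAURKA library than in every siNC library, while COL1A1 itself overlapped between the groups. This restates the COL1A2 values above and is not separate evidence of a change. The groups overlapped for every other ratio of chains computed. With the longest transcript in place of all exons as the length, the ratio still ran from 104 to 333. In GRCh38 COL1A1 spans 50183289 to 50201632 of chromosome 17, minus strand, and COL1A2 spans 94394561 to 94431232 of chromosome 7, plus strand. No exonic base of either is shared with another gene in the annotation. Their GC contents differed, at 61.1% for COL1A1 and 41.7% for COL1A2, the lowest of the 26 tested chains.

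The other abundant fibrillar chains belong to types V and III. COL5A1, a chain of type V collagen, which is built into type I fibrils and regulates their diameter, was at 31.25, 30.01 and 20.93 CPM/kb in siAURKA replicates 1, 2 and 3, against 37.12, 27.08 and 28.01 CPM/kb in siNC. Its partner COL5A2 was at 42.76, 18.66 and 33.97 CPM/kb in siAURKA, against 45.51, 9.176 and 28.99 CPM/kb in siNC. COL3A1, the only chain of the homotrimer type III, was at 11.50, 9.175 and 23.89 CPM/kb in siAURKA, against 13.89, 1.906 and 22.17 CPM/kb in siNC. The groups overlapped for all of these. The library numbered 2 was the lowest of its group for COL5A2 and COL3A1, and most so in siNC. In pair 2 the log2 ratio was 1.02 for COL5A2 and 2.26 for COL3A1, against -0.09 and 0.23 for COL5A2 and -0.27 and 0.11 for COL3A1 in pairs 1 and 3. The fitted log2 fold changes were -0.17 for COL5A1, 0.19 for COL5A2 and 0.23 for COL3A1 (SE 0.29, 0.58 and 0.78, adjusted p 0.9999 each by edgeR). COL5A1 was at -0.003 without siNC replicate 1 and at -0.011 without siAURKA replicate 3. Without siNC replicate 2 COL5A2 was at -0.22 and COL3A1 at -0.28. With all libraries and a replicate block edgeR put COL5A1 at -0.17, COL5A2 at 0.38 and COL3A1 at 0.65, and called none of them. COL3A1 and COL5A2 are neighbours on chromosome 2, with 19149 bases between their ends.

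The remaining fibrillar chains were scarce. COL11A2, a type XI chain of cartilage fibrils, averaged 0.718 ± 0.150 CPM/kb in siAURKA and 0.742 ± 0.269 CPM/kb in siNC (SD, n = 3 each). COL27A1, a fibrillar chain found in cartilage, averaged 0.634 ± 0.298 CPM/kb in siAURKA and 0.635 ± 0.334 CPM/kb in siNC. COL2A1, the main fibrillar chain of cartilage, and COL11A1 stayed under 0.2 CPM/kb in every library. By edgeR COL2A1 had the lowest log2 fold change of the tested chains, -1.35 (SE 1.18, 95% interval -4.10 to 1.41), with 21, 16 and 0 units in siAURKA replicates 1, 2 and 3, against 53, 13 and 13 units in siNC. These values lie close to the floor of 12 units in all libraries but siNC replicate 1. COL11A1 was at a log2 fold change of 0.55 with all libraries and -1.25 without siAURKA replicate 1, which alone held 87 units against 4 to 22 in the other 5.

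Type IV chains, which form the network of basement membranes, come from 3 pairs of genes placed head to head, each pair reading outward from a common stretch of DNA. The sequences between the RefSeq start sites of the 2 expressed pairs are shown because the genes on either side of each differed widely in level. They come from RefSeq on the plus strand of GRCh38.p14, and capitals mark each CCAAT and GGGCGG, searched on both strands together with TATAAA.
COL4A1-COL4A2, chr13:110307158-110307283: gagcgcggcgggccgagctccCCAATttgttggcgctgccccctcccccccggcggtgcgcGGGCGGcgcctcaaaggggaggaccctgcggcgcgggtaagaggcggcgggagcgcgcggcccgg
COL4A6-COL4A5, chrX:108439588-108439837: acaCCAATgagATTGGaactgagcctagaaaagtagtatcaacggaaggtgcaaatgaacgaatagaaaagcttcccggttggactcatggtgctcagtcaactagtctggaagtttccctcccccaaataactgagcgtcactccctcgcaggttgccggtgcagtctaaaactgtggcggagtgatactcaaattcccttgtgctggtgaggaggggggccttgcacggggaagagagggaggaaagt

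The first sequence is the whole interval of 126 bases between the starts of COL4A1 (minus strand) and COL4A2 (plus strand), which lie 127 bases apart. It has a GC content of 80.2% and 20 CpG dinucleotides, with 1 CCAAT and 1 GGGCGG. The second is the 250 bases before the start of COL4A5 (plus strand), part of the 380 bases to the nearer RefSeq start of COL4A6 (minus strand). It has a GC content of 51.2% and 8 CpG dinucleotides, with 1 CCAAT on each strand and no GGGCGG. Neither holds TATAAA. Of 35116 RefSeq promoter windows, the 126 bases before the start hold CCAAT in 21.1%, GGGCGG in 34.6% and TATAAA in 5.87%, and the 250 bases before it hold them in 32.0%, 42.6% and 10.7%. The motifs do not overlap one another in these sequences. RefSeq has a further start of COL4A6 at 108438422, outside the sequence shown, and its promoter window holds GGGCGG but no CCAAT. Which start the cells use was not tested. GENCODE gives other outer starts for these genes, and the match of letters is a description only.

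COL4A2 was by far the highest type IV chain. It was at 39.39, 56.03 and 37.73 CPM/kb in siAURKA replicates 1, 2 and 3, against 48.05, 52.49 and 43.84 CPM/kb in siNC replicates 1, 2 and 3. COL4A1, its partner in the common heterotrimer of basement membranes, was at 6.775, 5.123 and 4.296 CPM/kb in siAURKA, against 6.254, 3.339 and 3.808 CPM/kb in siNC. Both overlapped between the groups, and COL4A2 varied least of all tested chains with no 0, its highest library being 1.49 times its lowest. COL4A2 exceeded COL4A1 by 5.81-, 10.9- and 8.78-fold in siAURKA replicates 1, 2 and 3, against 7.68-, 15.7- and 11.5-fold in siNC, so the ratio was lower in siAURKA in each pair while the groups overlapped. The exons of COL4A2 span 19293 bases against 6494 for its longest transcript, and with longest transcripts as lengths its siNC level was 143 CPM/kb, against 48.1, while the ratio to COL4A1 ran from 7.75 to 21.0. By edgeR COL4A2 was at -0.12 (SE 0.27) and COL4A1 at 0.27 (SE 0.35) on the log2 scale, adjusted p 0.9999 for both. Without siAURKA replicate 1 COL4A1 was at 0.06, and without siAURKA replicate 3 COL4A2 was at -0.02. COL4A1 was higher in siAURKA in 3 of 3 pairs, at 0.12, 0.62 and 0.17, and COL4A2 in 1 of 3, at -0.29, 0.09 and -0.22.

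The other expressed head-to-head pair, on chromosome X, was lower in level. COL4A5 was at 3.427, 1.576 and 1.868 CPM/kb in siAURKA replicates 1, 2 and 3, against 3.772, 0.853 and 1.376 CPM/kb in siNC. COL4A6 was at 0.989, 0.496 and 0.379 CPM/kb in siAURKA, against 0.497, 0.118 and 0.314 CPM/kb in siNC. For both genes the library numbered 1 was the highest of its group. COL4A5 exceeded COL4A6 by 3.46-, 3.18- and 4.93-fold in siAURKA, against 7.59-, 7.21- and 4.39-fold in siNC, and these overlapped. Both are given in full after their values were seen. The edgeR fit put COL4A6 at 0.997 on the log2 scale (SE 0.60, adjusted p 0.9999) with pair ratios of 0.98, 2.02 and 0.27. Without siAURKA replicate 1 the log2 fold change of COL4A6 was 0.47, and without siNC replicate 1 it was 1.52. COL4A5 was at 0.19 (SE 0.59), and at -0.23 without siAURKA replicate 1. COL4A3 and COL4A4, the third head-to-head pair and the chains of specialised basement membranes in kidney and lung, did not pass the filter and had at most 22 and 19 units in a library.

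Type VI chains, which assemble as a heterotrimer before forming beaded microfilaments, held positions 2 and 3 of the siNC order with COL6A2 and COL6A1, or 3 and 4 with longest transcripts as lengths, while COL6A3 was at position 10, or 8. COL6A2 was at 39.13, 104.9 and 54.42 CPM/kb in siAURKA replicates 1, 2 and 3, against 38.34, 139.4 and 61.59 CPM/kb in siNC. COL6A1 was at 43.51, 72.19 and 45.61 CPM/kb in siAURKA, against 54.24, 75.31 and 58.79 CPM/kb in siNC. COL6A3, the long chain that carries most of the globular domains, was at 21.33, 13.87 and 6.802 CPM/kb in siAURKA, against 15.86, 14.91 and 7.089 CPM/kb in siNC. For COL6A1 and COL6A2 the library numbered 2 was the highest of its group, the reverse of COL3A1 and COL5A2. COL6A1 was lower in siAURKA in 3 of 3 pairs, at -0.32, -0.06 and -0.37, with overlapping groups, and the edgeR fit was at -0.22 on the log2 scale (SE 0.31, adjusted p 0.9999). COL6A1 was at -0.07 without siNC replicate 2 and at -0.49 without siAURKA replicate 2. COL6A2 was at -0.27 (SE 0.56), and at 0.41 without siNC replicate 2. COL6A3 was at 0.15 (SE 0.49), and at -0.30 without siAURKA replicate 1. COL6A1 and COL6A2 lie on the same strand of chromosome 21, with 93046 bases between them. The ratio of COL6A1 to COL6A2 ran from 0.688 to 1.11 in siAURKA and from 0.540 to 1.41 in siNC. The 2 further type VI genes, COL6A5 and COL6A6, had at most 5 units in a library.

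Of the FACIT chains only COL12A1 was abundant, and it was the most variable of the tested chains with no 0. COL12A1, whose product binds the surface of type I fibrils, was at 23.21, 4.558 and 11.03 CPM/kb in siAURKA replicates 1, 2 and 3, against 27.48, 1.659 and 9.435 CPM/kb in siNC replicates 1, 2 and 3. Its highest library was 16.6 times its lowest, and in both groups number 1 was highest and number 2 lowest. The log2 fold change was 0.01 (SE 0.93, 95% interval -2.16 to 2.18), with pair ratios of -0.24, 1.45 and 0.23. Leaving out siNC replicate 1 gave 1.23, and leaving out siAURKA replicate 1 gave -0.74. With all libraries and a replicate block COL12A1 was at 0.46 by edgeR and 0.45 by DESeq2, and neither called it. COL16A1 averaged 1.29 ± 0.234 CPM/kb in siAURKA and 1.11 ± 0.294 CPM/kb in siNC (SD, n = 3 each), and COL9A2 averaged 0.215 ± 0.143 CPM/kb in siAURKA and 0.109 ± 0.0471 CPM/kb in siNC. Both were higher in siAURKA in 3 of 3 pairs, COL16A1 at 0.36, 0.26 and 0.06 and COL9A2 at 0.05, 1.68 and 0.45, with overlapping groups. COL9A2 held 16, 48 and 42 units in siAURKA replicates 1, 2 and 3, against 12, 9 and 24 units in siNC, so its pair 2 rests on a siNC value below the floor of 12. COL16A1 was at 0.21 (SE 0.34) by edgeR, or 0.02 without siNC replicate 1. The other 7 FACIT genes did not pass the filter, and COL9A1, COL19A1 and COL22A1 were at 0 in all 6 libraries.

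The other chains were led by COL18A1, whose C-terminal fragment is endostatin, an inhibitor of vessel growth. COL18A1 was at 18.45, 36.21 and 22.02 CPM/kb in siAURKA replicates 1, 2 and 3, against 19.31, 31.30 and 23.47 CPM/kb in siNC. The groups overlapped, and the edgeR fit was at 0.05 on the log2 scale (SE 0.35, adjusted p 0.9999). Since 16.4% of its exonic bases are shared with SLC19A1 and the use of strand in counting is not stated, its level is uncertain. COL8A1, a short chain that forms hexagonal networks in vessel walls, was at 4.441, 2.729 and 4.056 CPM/kb in siAURKA, against 6.575, 1.694 and 4.417 CPM/kb in siNC. COL13A1, a transmembrane collagen of adhesion sites, averaged 2.92 ± 1.06 CPM/kb in siAURKA and 2.81 ± 0.786 CPM/kb in siNC (SD, n = 3 each). COL7A1, the chain of anchoring fibrils under epithelia, averaged 0.972 ± 0.127 CPM/kb in siAURKA and 1.04 ± 0.355 CPM/kb in siNC. COL8A1, COL13A1 and COL7A1 overlapped between the groups, with log2 fold changes of -0.18, 0.05 and -0.10. COL8A2 and COL15A1 passed the filter but stayed below 0.2 CPM/kb.

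COL17A1, the transmembrane collagen of hemidesmosomes, had the highest log2 fold change of the tested chains in the edgeR fit without a replicate block, and it is singled out here after its values were seen. With a block COL4A6 and COL1A2 were above it, at 1.07 and 1.06 against 1.05 for COL17A1. It was at 1.494, 2.167 and 0.781 CPM/kb in siAURKA replicates 1, 2 and 3, against 0.482, 1.074 and 0.555 CPM/kb in siNC. siAURKA replicate 3 lay below siNC replicate 2, so the groups overlapped, while each siAURKA library was above the siNC library of its number, by log2 ratios of 1.62, 1.01 and 0.49. By edgeR the log2 fold change was 1.08 (SE 0.50, 95% interval -0.09 to 2.24), with an adjusted p of 0.9999 (0.0653 before adjustment). With a replicate block DESeq2 gave an adjusted p of 0.110, the smallest of any chain in any fit. Leaving out 1 library gave log2 fold changes from 0.70 to 1.51.

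Among the 18 chains that did not pass the filter, 4 were at 0 in all 6 libraries and 14 had a value above 0 in at least 1. The 4 are COL9A1, COL19A1, COL22A1 and COL23A1. The highest value among the 14 was 24 units, for COL5A3 in siAURKA replicate 2, and 8 of the 14 reached 12 units in some library. Nothing is said of change for these chains. In order of siNC level, COL1A1 came first, then COL6A2, COL6A1, COL4A2, COL5A1, COL5A2, COL18A1, COL12A1, COL3A1, COL6A3, COL4A1 and COL8A1. Of the steps between neighbours in the full order, the siNC libraries of the neighbours were apart for COL6A1 above COL4A2, COL4A2 above COL5A1 and COL6A3 above COL4A1, and overlapped in the others. With longest transcripts as lengths COL4A2 moved from position 4 to position 2.

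No collagen chain was called in siAURKA against siNC. edgeR called 0 of the 26 tested chains at an adjusted p of 0.05, where it called 0% of all 18775 tested genes. DESeq2 called 17 genes in all (0.091%) and DESeq2 with a replicate block 246 (1.67%), and no chain was among them. Before adjustment 1 chain, COL1A2, had p below 0.05 by edgeR, or 3.85% of the 26, where 1.26% of all tested genes did. With a replicate block edgeR gave 3 such chains, COL1A2, COL17A1 and COL4A6, where 8.48% of all tested genes had an unadjusted p below 0.05. Of the 26 chains 16 had a log2 fold change above 0, or 61.5%, against 48.5% of all tested genes, and 2 were at 1 or more, against 2.74% of all tested genes. The median log2 fold change was 0.05 over the chains and -0.01 over all tested genes. The chains higher in siAURKA in all 3 pairs numbered 6, or 23.1%, against 17.9% of all tested genes. They were COL1A2, COL4A1, COL4A6, COL16A1, COL9A2 and COL17A1, with COL9A2 near the floor. COL2A1 and COL6A1 were lower in all 3 pairs, or 7.69%, against 17.6% of all tested genes, and pair 3 of COL2A1 rests on a siAURKA value of 0.

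**Figure D3:**
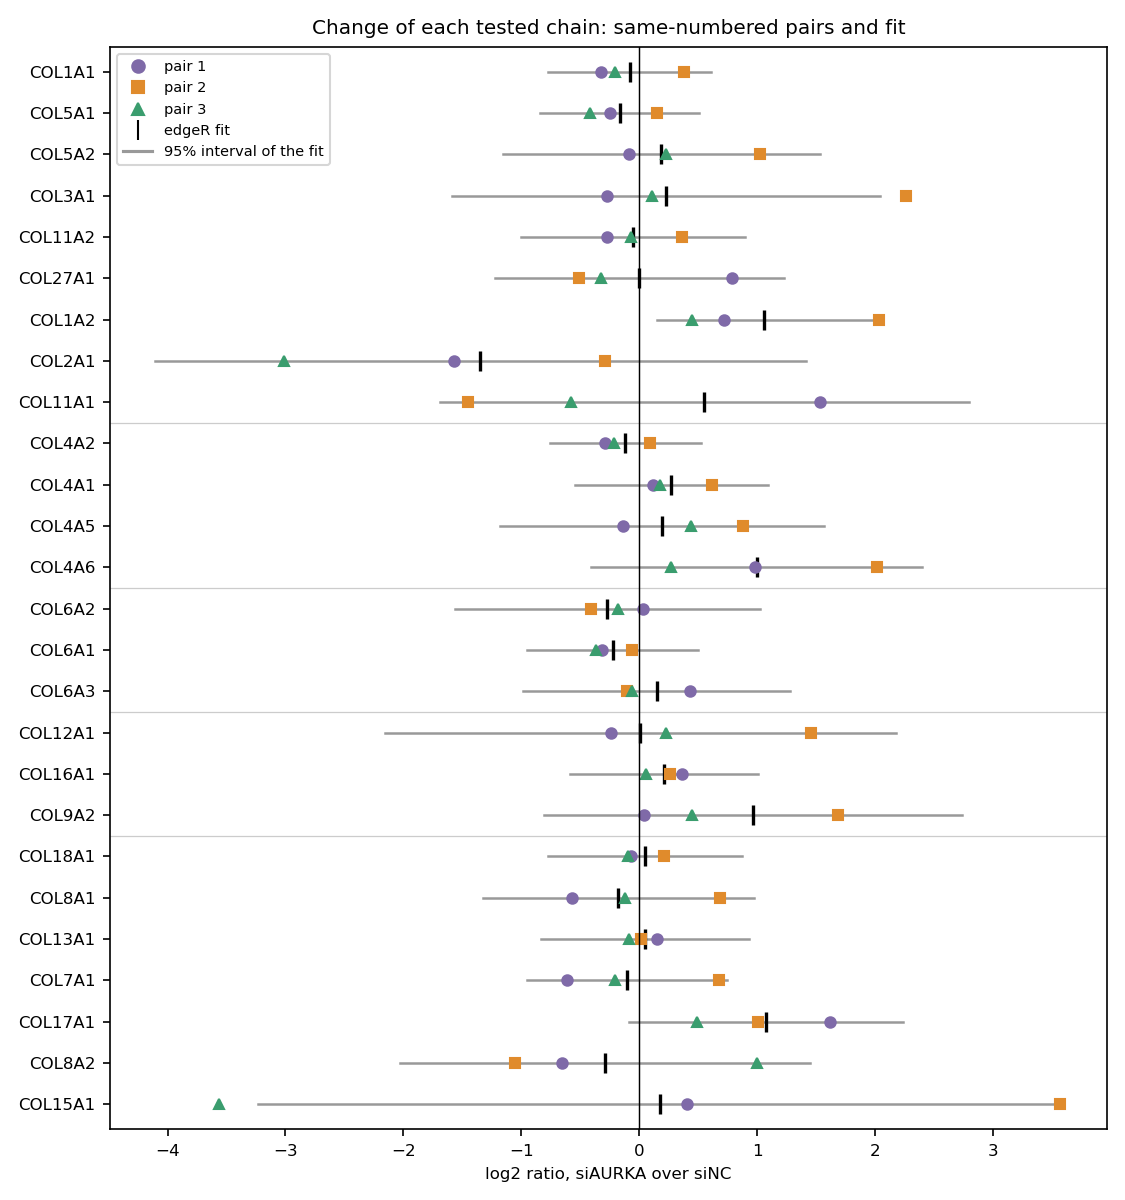
Log2 ratio of siAURKA over siNC for each of the 26 tested chains, grouped by class, with the 3 same-numbered pairs as coloured markers, the edgeR fit as a black tick and its 95% interval as a grey line. Only the interval of COL1A2 lies wholly above 0, at 0.15 to 1.97 without adjustment for the number of genes, and for many chains pair 2 lies away from pairs 1 and 3.

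How closely the change was bounded differed between the abundant chains. The 95% intervals of the log2 fold change ran from -0.75 to 0.52 for COL4A2, from -0.84 to 0.51 for COL5A1 and from -0.95 to 0.50 for COL6A1. They were wider for COL3A1, from -1.58 to 2.05, and for COL6A2, from -1.57 to 1.03. All of them come from the edgeR fit without a replicate block. With a block DESeq2 gave an SE of 0.18 for COL6A2 and 0.45 for COL3A1, against 0.56 and 0.78 in that edgeR fit. The blocked SE was 0.17 for COL4A2, 0.19 for COL5A1 and 0.16 for COL6A1. In the edgeR fit, changes inside the 95% intervals cannot be told from no change with 3 libraries a group. The intervals are not limits of detection, since a change outside them could also go uncalled. By edgeR AURKA, at a log2 fold change of -1.28, had an adjusted p of 0.9999. In bulk RNA, fewer cells making a chain and less RNA of it per cell cannot be told apart. Over the tested chains the median log2 ratio was -0.08 in pair 1, 0.37 in pair 2 and -0.08 in pair 3, beside -0.02, 0.03 and 0.00 over all tested genes.

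Levels also differed between the libraries of one group. siNC replicate 2, the shallowest library, held the lowest value of 11 of the 26 chains, among them COL1A1, COL1A2, COL3A1, COL5A2, COL12A1 and COL4A1. It held the highest value of 4 chains, COL6A1, COL6A2, COL27A1 and COL8A2. Relative to the mean log2 CPM of the other 5 libraries, it was at -2.98 for COL3A1, -2.91 for COL12A1 and -1.82 for COL5A2, but at 1.33 for COL6A2 and 0.48 for COL6A1. Base composition varied alongside these deviations. Across the 26 chains they correlated with the GC content of the transcript at r = 0.61 in siNC replicate 2, and at -0.72 in siAURKA replicate 1 and -0.42 in siNC replicate 1. Across all annotated tested genes the same correlations were 0.39, -0.42 and -0.41. In siAURKA replicates 2 and 3 and siNC replicate 3 the correlations across the chains were 0.386, -0.115 and 0.036. Across all annotated tested genes these were 0.231, -0.018 and 0.15. The chains share their libraries and genes are not independent, so these are descriptions. Of the 5 tested chains with a GC content under 50%, 4 were below the mean of the other libraries in siNC replicate 2. Of the 21 with 50% or more, 11 were below it. With per-library trends on GC content and length taken out, COL1A2 was at 0.998 and COL17A1 at 1.18 on the log2 scale, and 0 chains were called. COL17A1 then had an unadjusted p below 0.05 and COL1A2 did not, where 2.47% of all tested genes did. With these offsets and a replicate block COL1A2, COL17A1, COL4A1 and COL4A6 had one, where 8.96% of all tested genes did. The part of base composition in the other differences was not tested.

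**Figure D4:**
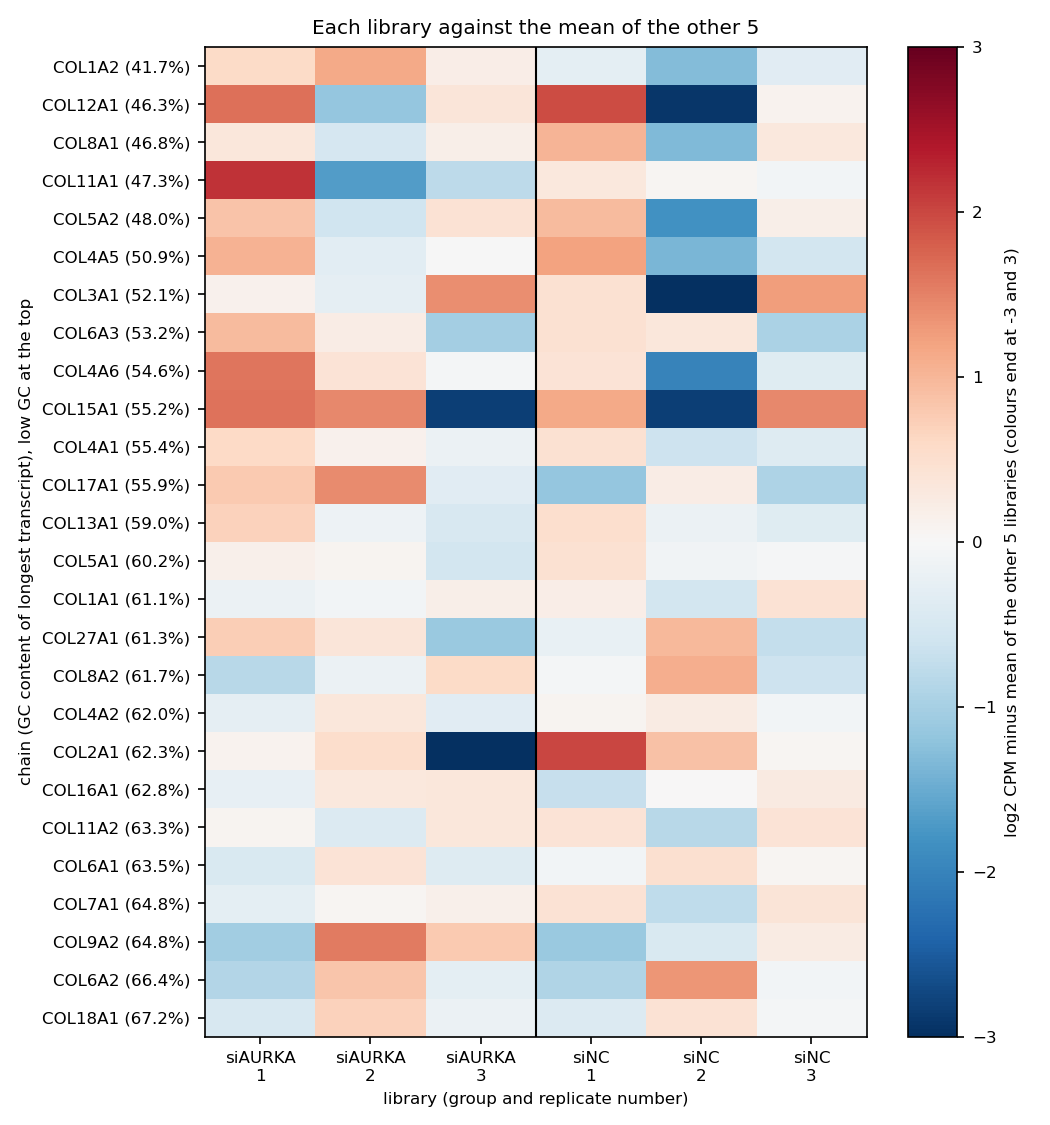
Log2 CPM of each tested chain in each library minus the mean of the other 5 libraries, with siAURKA on the left, siNC on the right and the chains ordered from low GC content at the top to high at the bottom. In siNC replicate 2 COL3A1 and COL12A1 are lowest among the chains with no 0, at -2.98 and -2.91, and COL6A2 is highest at 1.33.

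Genes that modify, export, crosslink and bind collagen were read from the same fit, and none was called by edgeR, with or without a replicate block, or by DESeq2 with a replicate block. All 19 genes of modification and folding were tested, 4 with a log2 fold change above 0 and 15 below, with a median of -0.17 beside -0.01 over all tested genes. P4HA2, a prolyl hydroxylase subunit, was at 152.2 ± 1.52 CPM in siAURKA and 205.5 ± 79.8 CPM in siNC (SD, n = 3 each). It was at 153.5, 152.5 and 150.5 CPM in siAURKA replicates 1, 2 and 3, against 157.1, 297.7 and 161.8 CPM in siNC. All siAURKA libraries were below all siNC libraries, the nearest by a narrow margin, as in 2.52% of all tested genes. P4HA2 had a log2 fold change of -0.43, or -0.06 without siNC replicate 2. PLOD2, a lysyl hydroxylase, was at -0.60, or -0.05 without siNC replicate 1. FKBP14, a chaperone of the endoplasmic reticulum, was at 0.35, or 0.17 without siAURKA replicate 1. Of 15 genes of export and processing 13 were tested, 6 above 0 and 7 below, with a median of -0.004. FURIN, a proprotein convertase, was at -0.56 and TANGO2 at -0.32, or -0.18 each without siNC replicate 2. TANGO2 was counted in this list without an established role in collagen export. KLHL12, an adaptor of the ubiquitin ligase that enlarges collagen carriers, was at 0.39, or 0.08 without siAURKA replicate 1. All 5 lysyl oxidase genes, which crosslink collagen, were below 0, with a median of -0.28. LOXL2, the highest of them in CPM, was at 582.4, 930.7 and 697.6 CPM in siAURKA replicates 1, 2 and 3, against 875.4, 1168 and 1070 CPM in siNC. Its log2 fold change was -0.49 (SE 0.29), and the groups overlapped. LOXL2 and LOXL3 were lower in siAURKA in 3 of 3 pairs, as were 17.6% of all tested genes. Leaving out 1 library put LOXL2 between -0.69 (siAURKA replicate 2 out) and -0.36 (siAURKA replicate 1 out). With a replicate block DESeq2 gave LOXL2 an adjusted p of 0.0589, so it was not called. LOX was at -0.28, or 0.09 without siNC replicate 2, and LOXL4 at -0.33, or 0.37 without siNC replicate 3. LOXL1 was at -0.12, or 0.06 without siAURKA replicate 1, and LOXL3 at -0.15, or 1.15 without siNC replicate 2. Of 11 receptors 10 were tested, 5 above 0 and 5 below, with a median of 0.14. DDR1, a receptor tyrosine kinase that binds collagen, was at 23.65, 37.72 and 30.75 CPM in siAURKA, against 47.33, 44.43 and 37.75 CPM in siNC. All siAURKA libraries were below all siNC libraries, the nearest by a narrow margin, as in 2.52% of all tested genes. DDR1 was at -0.49 on the log2 scale by edgeR (SE 0.30, adjusted p 0.9999). The integrin gene ITGA10 was at 0.64, with 0.22 without siNC replicate 2 and 1.74 without siNC replicate 3. ITGA2 was at -0.37, or 0.13 without siNC replicate 1.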

How the data were processed

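The authors deposited 1 table of whole numbers per Ensembl gene, treated as unscaled estimated counts. HISAT2 and GRCh38 come from the submitters' processing notes. Which tool counted, whether it used strand and with which annotation is not given in the sources. Multiples of 4 made up 30.3% to 34.0% of a library's values between 1 and 24, against 25% at equal frequencies, and what 1 unit stands for is unknown. Therefore a floor of 12 units (3 fragments if 1 fragment is worth 4) was used. The totals are 23366242 to 53357402 units.

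Of the identifiers 57980 matched GENCODE 29 and 263 did not. All values were whole, so none was rounded. Differences were tested in edgeR (quasi-likelihood F-test, TMM factors) with the default filterByExpr filter and Benjamini-Hochberg adjustment over all 18775 tested genes at 0.05. Standard errors are the log2 fold change divided by the square root of F, intervals use the fit's degrees of freedom, and pair ratios use log2 CPM with a prior count of 2. The other settings were DESeq2 size factors, library totals, no filter, DESeq2, limma-voom, a replicate block, lowess trends (span 0.3) on GC content and length as offsets, and each library left out. The fits were also run on simulated counts drawn without replicate or GC effects, which cannot show how they behave on libraries that have them. Replicate numbers were taken to pair the libraries, since deviations from group means correlated at 0.647, 0.477 and 0.302 for numbers 1, 2 and 3, above 0.1 in each, while the labels name no shared day; with the block DESeq2 called 246 genes and edgeR 0. The chains, lists and tests were chosen with earlier results of these data known. Values in every library are given for the 12 chains with the highest siNC level and any whose groups do not overlap or that a fit called; COL4A5, COL4A6 and COL17A1 were added after their values were seen. In each list the 3 genes with the smallest p are named. RefSeq promoter windows (GRCh38.p14) matched 32 of the 44 chains. The software was DESeq2 1.42.0, edgeR 4.0.16 and limma 3.58.1 in R 4.3.3, with figures from matplotlib 3.10.9 and tables from pandas 2.3.3 in Python 3.11.15.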

Additional observations from a re-analysis of the deposited data

How the results depend on the processing

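Over all tested genes edgeR called 0; 17 were called by DESeq2, 246 by DESeq2 with a replicate block, and 0 to 2 by edgeR when 1 library was left out (2 without siAURKA replicate 2). No alternative called a chain or a collagen assembly or receptor gene. AURKA passed the threshold with DESeq2 (log2 fold change -1.29) and with DESeq2 and a replicate block (-1.28). With the longest transcript as length the siNC levels were 316.2 CPM/kb for fibrillar, 157.0 for basement membrane, 226.4 for beaded filament, 46.53 for other and 761.9 for all chains, against 229.3, 54.92, 155.2, 33.72 and 487.3. Without 1 library the log2 ratio of summed levels ran from -0.558 to 0.183 for beaded filament, -0.551 to 1.058 for FACIT and -0.175 to 0.154 for other chains.

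Among the chains, 13 of 234 log2 fold changes under 9 other fits had the other sign, all for 6 chains close to 0 or to the floor. With GC and length offsets COL11A2 was at 0.013, and with these offsets and a replicate block COL11A2 was at 0.133, COL1A1 at 0.052, COL7A1 at 0.054 and COL11A1 at -0.184. COL27A1, at 0.000, was at -0.018 with DESeq2 size factors, -0.018 with DESeq2, -0.013 with edgeR and a replicate block and -0.029 with DESeq2 and a replicate block. COL11A1 was at -0.040 with limma-voom, -0.137 with edgeR and a replicate block and -0.238 with DESeq2 and a replicate block, and COL15A1 at -0.622 with limma-voom. The cause was not tested. Leaving out 1 library turned the sign of 16 chains, with the ranges -0.280 to 0.099 for COL1A1, -0.223 to 0.742 for COL5A2, -0.300 to 0.918 for COL3A1, -0.316 to 0.115 for COL11A2, -0.330 to 0.512 for COL27A1, -1.246 to 1.030 for COL11A1, -0.232 to 1.046 for COL4A5, -0.766 to 0.407 for COL6A2, -0.301 to 0.476 for COL6A3, -0.736 to 1.229 for COL12A1, -0.283 to 0.259 for COL18A1, -0.550 to 0.296 for COL8A1, -0.292 to 0.309 for COL13A1, -0.356 to 0.060 for COL7A1, -0.716 to 0.254 for COL8A2, -0.365 to 0.759 for COL15A1. The replicate block changed no call of a chain. None of the 14 untested chains above 0 exceeded 24 units, and the part of depth in this was not tested.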
